A study of Mus musculus with 15 samples.

Results

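Among the 52636 gene identifiers of the count table, 6 belonged to the oestrogen receptor and a small set of its classical target genes: Esr1, Nrip1, Greb1, Cxcl12, Igfbp4 and Rara. They were taken by name, with no threshold on a measured value, although earlier results of these data were known. All 6 passed the filter on low counts, which left 13451 genes for testing. RNA was sequenced from mouse epiblast-like cells (EpiLCs), a culture model of the early post-implantation epiblast, made from embryonic stem cells by way of RSCs over 2 passages and then 48 h of EpiLC differentiation. The cells were of the line CRAFR26, which carries a kinase construct that switches ERK signalling on when 4-hydroxytamoxifen (4OHT) is added. Every one of the 15 libraries, those of the 0h group included, came from cells with this construct, in N2B27 medium with bFGF (12 ng/ml), Activin A (20 ng/ml) and XAV939 (1 µM). All had also been held for 2 h with 250 nM of the FGF receptor inhibitor PD173074 (PD17).

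The 0h group (n = 3) had no 4OHT. The 2h group (n = 4) had 250 nM 4OHT for 2 h and the 4h group (n = 4) had it for 4 h. The rev group (n = 4) had 4OHT for 4 h and then a MEK inhibitor for 2 h, to bring ERK output down again. Each library came from clone 4 or clone 8 of the line, and libraries are named below by clone and number (clone4_1). At 0h there was 1 library of clone 4 and 2 of clone 8, since the submitters discarded 1 in quality control, and each other group had 2 of each clone. The labels do not say that the libraries of a clone were separate cultures, so p-values measure only the spread between these samples.

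Oestrogen receptor alpha, the product of Esr1, is a nuclear receptor that binds DNA at oestrogen response elements when it holds a ligand and recruits coactivators or corepressors. 4OHT is the active metabolite of tamoxifen and a ligand of this receptor that acts as antagonist or agonist depending on the tissue. In breast cancer cells, where the targets were mostly worked out, oestrogen raises Greb1, Nrip1, Cxcl12, Igfbp4 and Rara. A tamoxifen-switched construct therefore raises the question whether 4OHT itself moves such endogenous genes. In this design 4OHT and ERK induction started together and no group had 4OHT without the construct, so that effects of the ligand and of ERK cannot be told apart. No untreated group is labelled as matched in culture time to 2h, 4h or rev, so an effect of time cannot be told apart from them either. Rev differed from 4h by the MEK inhibitor and by 2 h more of culture, and the labels do not say whether 4OHT stayed in the medium.

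The libraries held 1552022 to 13004556 counts. The 4 libraries of 4h were the smallest (1552022 to 6658950). They gave 66.17% to 79.87% of their counts to the 20 most abundant and the mitochondrial genes, against 51.09% to 73.34% in the other groups. The members thus rest on few reads at 4h. A level of 3 counts corresponded to between 0.161 and 1.83 CPM, the unit of all levels here (counts relative to the TMM-scaled size of the library), and such floors cover counting error only. The EpiLC markers were present at 0h, among them Dnmt3b at 935 CPM, Pou5f1 at 167.9 CPM and Fgf5 at 23.2 CPM. Their summed level was 1160 to 1399 CPM at 0h and 680.5 to 761.1 CPM at 4h, where 4 of the 6 had fallen and 2 had risen, beside 39.4% of all genes called in this comparison. Over the same step, naive pluripotency markers went from 15.1 to 20.6 CPM to 31.2 to 92.9 CPM in sum (5 of 6 called higher) and the neural markers Sox1 and Pax6 from 2.38 to 4.85 CPM to 37.9 to 50.5 CPM (2 of 2 called higher). Mesendoderm markers summed to 2.79 to 3.35 CPM at 0h, 5.69 to 11.3 CPM at 4h and 6.74 to 11.2 CPM in rev (1 of 3 tested called higher at 4h), and primitive endoderm markers to 1.87 to 2.21, 1.89 to 3.46 and 2.96 to 3.82 CPM (the 1 tested was not called). Fibroblast or feeder markers summed to 3.61 to 9.83 CPM at 0h, 3.84 to 9.76 CPM at 2h, 0.754 to 6.72 CPM at 4h (1 of 2 tested called lower than at 0h) and 6.95 to 17.0 CPM in rev (2 of 2 called higher than at 4h), and Postn was at 0 in every library. Trophoblast markers went from 0.121 to 0.324 CPM at 0h to 0.754 to 5.43 CPM at 4h (1 of 1 tested called higher) and 0.415 to 1.65 CPM in rev. The part of these shifts in the results at 4h and in rev was not tested, and in bulk RNA fewer cells of a type and less RNA per cell cannot be told apart. The summed level of 10 ERK readout genes was 164 to 208 CPM at 0h, 802 to 1510 CPM at 2h, 440 to 818 CPM at 4h and 292 to 356 CPM in rev, so ERK output was lower in rev than at 4h but still above 0h. Reads from the construct that match Esr1 would be counted there, and this was not tested.

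Divided by exon length, the members stood in the order Rara (6.76 ± 2.16 CPM per kb, SD over all 15 libraries), Cxcl12 (2.56 ± 1.16), Nrip1 (1.81 ± 0.565), Igfbp4 (0.889 ± 0.22), Esr1 (0.799 ± 0.268) and Greb1 (0.390 ± 0.141). Rara lay above the others in every library: its lowest value, 5.01 CPM per kb, exceeded the highest of Cxcl12, 4.75. Each other neighbouring pair in this order overlapped in range, and Igfbp4 and Esr1 differed by less than either SD. The oestrogen receptor gene was thus one of the least abundant members per length. Of the other receptors for oestrogen, Esr2, which encodes receptor beta, had at most 8 counts in a library, and neither it nor the membrane receptor Gper1 passed the filter.

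The promoters of Greb1, Nrip1 and Cxcl12 are shown because these 3 genes were called at 4h against 0h and kept their sign under every scaling run. Rara, the other member called there, changed sign with total-count scaling. The binding motifs of the receptor were looked for in them. Each is the 250 bases before the start of a RefSeq transcript (GRCm38.p6), 5′ to 3′ on the strand of the gene, with the nuclear receptor core motif AGGTCA or its complement TGACCT in capitals.
Greb1, chr12:16800887-16801136, minus strand: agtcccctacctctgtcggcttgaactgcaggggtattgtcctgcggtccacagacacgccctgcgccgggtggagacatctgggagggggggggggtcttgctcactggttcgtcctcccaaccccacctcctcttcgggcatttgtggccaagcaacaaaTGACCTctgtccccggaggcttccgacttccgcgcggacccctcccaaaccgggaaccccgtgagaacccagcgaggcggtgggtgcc
Nrip1, chr16:76373828-76374077, minus strand: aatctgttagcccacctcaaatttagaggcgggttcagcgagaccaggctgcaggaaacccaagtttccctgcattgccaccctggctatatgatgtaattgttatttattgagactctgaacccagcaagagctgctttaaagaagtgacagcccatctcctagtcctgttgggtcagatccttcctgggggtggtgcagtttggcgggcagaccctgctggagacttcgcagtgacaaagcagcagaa
Cxcl12, chr6:117168285-117168534, plus strand: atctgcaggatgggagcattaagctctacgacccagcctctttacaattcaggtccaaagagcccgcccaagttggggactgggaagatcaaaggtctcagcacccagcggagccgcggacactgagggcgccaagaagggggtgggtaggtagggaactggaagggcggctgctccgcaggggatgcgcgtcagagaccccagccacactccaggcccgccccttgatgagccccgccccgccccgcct
The core motif occurs in the Greb1 promoter, 88 bases before the start, and in neither of the others. RefSeq gave 12 promoters for the 6 members, and this was the only core motif in the 12. Both strands were searched. The motif stood in 14.02% of all 32851 promoters of the same length. The palindromic oestrogen response element GGTCANNNTGACC, whose arms overlap the core motif, was in none of the 12 and in 0.064% of all promoters. The AP-1 motif TGANTCA, present in 6.75% of all promoters, was in none, and neither was the ETS motif CCGGAAGT, present in 2.88%. AP-1 and ETS factors are the best known nuclear targets of ERK. The GC box GGGCGG was in 5 of the 12 (of Cxcl12, Nrip1 and Rara) and in 32.74% of all promoters. GC content was 65.2% in the Greb1 promoter shown, 64.4% in that of Cxcl12 and 51.2% in that of Nrip1, against a median of 52.4% over all promoters. It depended on the transcript, since another promoter, not shown, had 46.0% for Greb1 and 73.6% for Nrip1. These are matches of letters in a short window and say nothing of distal elements, where much of the receptor's binding is known to lie.

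**Figure D1:**
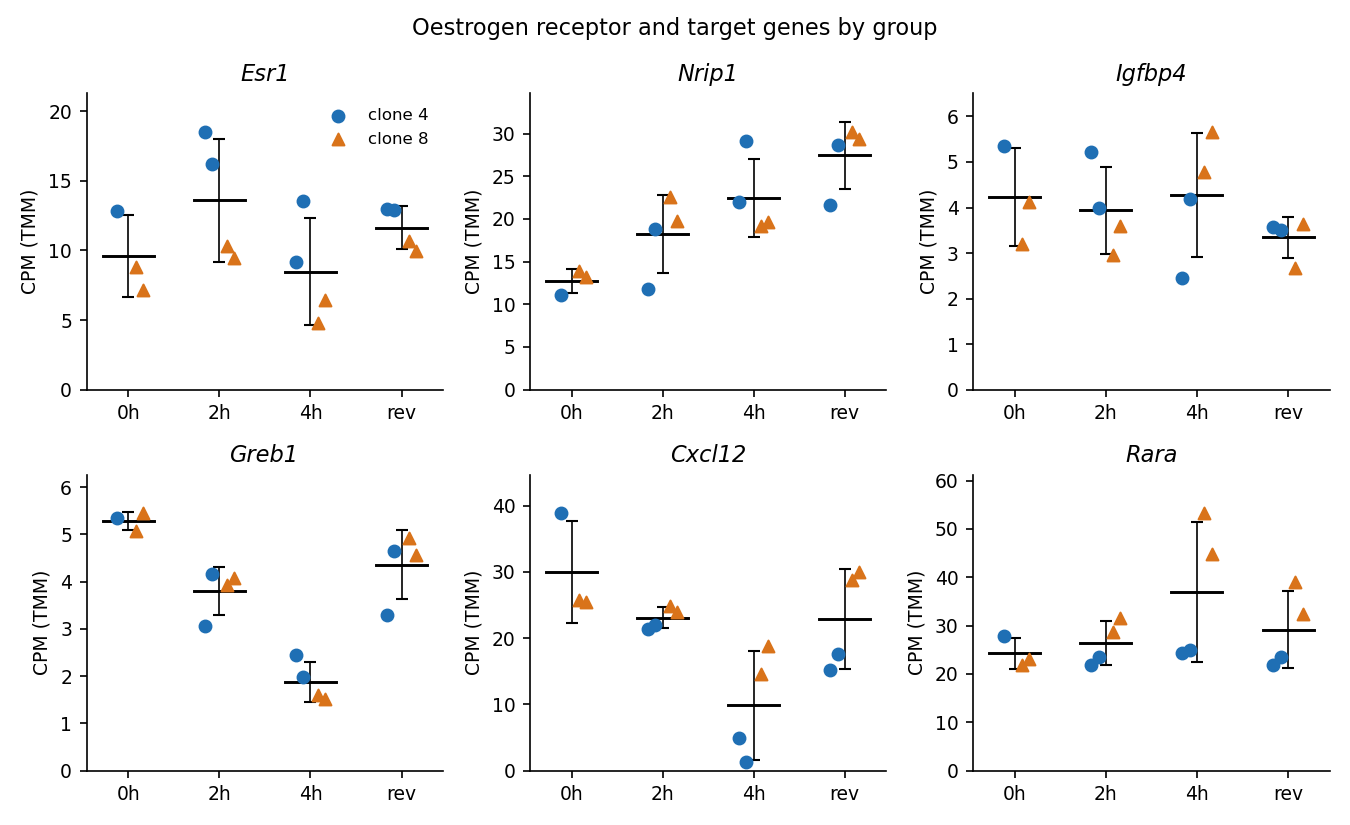
Level of each gene (vertical axis, CPM on TMM-scaled libraries, from 0) in the groups 0h, 2h, 4h and rev. Points are libraries of clone 4 (circles) or clone 8 (triangles), the thick line is the group mean and the bars are the SD. Greb1 falls to 1.51 to 2.44 CPM at 4h and returns to 3.29 to 4.93 CPM in rev, Nrip1 is highest in rev, and the clones separate at 4h for Cxcl12 and Rara.

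Esr1, the receptor gene (ENSMUSG00000019768, mm10 chr10:4611593-5005614, plus strand), had 12.8, 8.82 and 7.15 CPM at 0h. Here and below the single clone 4 library of 0h is given first and its 2 clone 8 libraries after it, and the other groups are given as both clone 4 and then both clone 8 libraries, by number. Esr1 had 18.5, 16.2, 10.3 and 9.48 CPM at 2h, 9.16, 13.6, 4.78 and 6.41 CPM at 4h, and 12.96, 12.91, 10.7 and 9.96 CPM in rev. Clone 4 was above clone 8 within each group, and the groups overlapped in every comparison. The highest mean was at 2h (13.6 ± 4.42 CPM, SD, n = 4) and the lowest at 4h (8.48 ± 3.85 CPM, SD, n = 4). Between these times Esr1 fell by 0.69 on the log2 scale (SE 0.168, adjusted p = 0.00269), and this held without any of the 8 libraries (-0.93 to -0.56), though not without the clone term (adjusted p = 0.088). Against 0h, the log2 difference was 0.36 at 2h (95% interval 0.01 to 0.72, adjusted p = 0.222), -0.32 at 4h (-0.70 to 0.05, adjusted p = 0.166) and 0.19 in rev (-0.16 to 0.54), and none was called. Without the 4h library clone4_2 the difference of 4h from 0h was called (-0.56, adjusted p = 0.0208). Esr1 was 0.51 higher in rev than at 4h (SE 0.170, adjusted p = 0.0257), but in 5 of the 8 fits that left out a library it was no longer called (0.37 to 0.74 over the 8). This call was also lost by DESeq2 (0.45, adjusted p = 0.076), with no clone term and with only the groups compared. The same held for the older quasi-likelihood method and without the 20 most abundant and mitochondrial genes.

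Nrip1 (ENSMUSG00000048490, mm10 chr16:76287400-76373827, minus strand) encodes RIP140, a corepressor that binds ligand-bound nuclear receptors and is itself induced by oestrogen. It had 11.1, 13.9 and 13.2 CPM at 0h. At 2h it had 11.8, 18.8, 22.6 and 19.7 CPM, at 4h 22.0, 29.1, 19.1 and 19.6 CPM, and in rev 21.6, 28.7, 30.2 and 29.4 CPM. All 8 libraries of 4h and rev lay above all 3 of 0h, and at 2h only clone4_1 lay within the range of 0h. In the fit over both clones, Nrip1 was the only member called higher after the MEK inhibitor than at 0h. It rose by 0.86 on the log2 scale at 4h (SE 0.189, 95% interval 0.47 to 1.25, adjusted p = 0.00112) and by 1.13 in rev (SE 0.184, 0.75 to 1.51, adjusted p = 0.000332). At 2h the difference was 0.54 (SE 0.181, 0.16 to 0.91, adjusted p = 0.08). Without the 2h library clone4_1 it was 0.66 and called (adjusted p = 0.0167). Rev was 0.27 above 4h (adjusted p = 0.239) and 0.59 above 2h (adjusted p = 0.0626). The calls at 4h and in rev held without any library (0.63 to 0.97 and 1.06 to 1.21), but not when libraries were scaled by their total counts: the differences were then 0.11 (adjusted p = 0.778) and 0.79 (adjusted p = 0.0941).

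That scaling shifted the median of all genes, most in the comparisons with the 4h libraries. Scaled by total count, the median lay at -0.73 in 4h vs 0h, -0.57 in 4h vs 2h and 0.45 in rev vs 4h. In rev vs 0h, which holds no 4h library, it lay at -0.30. With TMM these medians were 0.03, -0.01, 0.02 and 0.02. The part of the abundant genes in the shift was not tested. Log2 differences are relative to these medians.

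Greb1 (ENSMUSG00000036523, mm10 chr12:16670615-16800886, minus strand), a chromatin-bound cofactor of the receptor and among its most responsive targets in breast cancer cells, went the other way. It had 5.34, 5.08 and 5.45 CPM at 0h. At 2h it had 3.06, 4.16, 3.92 and 4.07 CPM, at 4h 2.44, 1.98, 1.59 and 1.51 CPM, from 4, 8, 7 and 4 counts, and in rev 3.29, 4.65, 4.93 and 4.57 CPM. Each of the 12 libraries that had received 4OHT lay below each of the 3 that had not, and those of 4h lay below all others. Greb1 fell by 1.52 on the log2 scale from 0h to 4h (SE 0.244, 95% interval -2.03 to -1.02, adjusted p = 5.08e-05), and by 1.06 from 2h to 4h (SE 0.237, adjusted p = 0.00126). It rose by 1.24 from 4h to rev (SE 0.237, adjusted p = 0.00042). These 3 calls held in every alternative run, total-count scaling included, and without any library (-1.63 to -1.43 in 4h vs 0h). At 2h it differed from 0h by -0.46 (-0.87 to -0.05, adjusted p = 0.174) and in rev by -0.28 (-0.69 to 0.13, adjusted p = 0.387), neither called although neither group overlapped 0h. Greb1 shares 736 of its 9580 exon bases with the antisense gene Gm48140. The handling of strand in counting is not given in the sources used here, and Gm48140 had at most 3 counts in a library.

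Cxcl12 (ENSMUSG00000061353, mm10 chr6:117168535-117181367, plus strand) encodes a chemokine that guides migrating cells through the receptor Cxcr4. It had 38.9, 25.7 and 25.4 CPM at 0h. At 2h it had 21.4, 22.0, 24.9 and 23.9 CPM, at 4h 4.89, 1.23, 14.6 and 18.8 CPM, from 8, 5, 64 and 50 counts, and in rev 15.2, 17.5, 28.8 and 29.99 CPM. The libraries of 2h and of 4h all lay below those of 0h, and at 4h both libraries of clone 4 lay below both of clone 8. In the fit over both clones, Cxcl12 fell by 1.74 on the log2 scale at 4h (SE 0.541, 95% interval -2.94 to -0.54, adjusted p = 0.0265). This call was lost without the 0h library clone4_1 (-1.11, adjusted p = 0.141) or the 4h library clone4_1 (-1.61, adjusted p = 0.0617). It was also lost with only the groups compared (-1.84, adjusted p = 0.169) and with a replicate block (-1.64, adjusted p = 0.0606). With total-count scaling the difference was -2.52 and called. It was -0.36 at 2h (-1.46 to 0.74, adjusted p = 0.739) and -0.44 in rev (-1.55 to 0.67), and both turned positive without clone4_1 of 0h (0.39 and 0.27). The differences of 4h from 2h (-1.38, adjusted p = 0.0574) and of rev from 4h (1.30, adjusted p = 0.081) were not called, but both were without clone8_2 of 4h (-1.77 and 1.69), with total-count scaling (-1.89 and 1.70) and by DESeq2 (-1.44, adjusted p = 0.0158, and 1.34, adjusted p = 0.034). The first was also called without clone4_2 of 4h (-0.95, adjusted p = 0.046). The summed fibroblast or feeder markers also were lowest at 4h and higher in rev. They had 6.72 and 6.42 CPM at 4h in clone 4 and 2.05 and 0.754 CPM in clone 8, the opposite order to Cxcl12. At 0h they had 9.83 CPM in clone 4 and 3.61 and 5.33 CPM in clone 8, the same order as Cxcl12. At 2h and in rev the order was again opposite. Their part in the values of Cxcl12 was not tested.

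Igfbp4 (ENSMUSG00000017493, mm10 chr11:99041244-99054392, plus strand), a secreted protein that holds insulin-like growth factors away from their receptor, was not called in any comparison over both clones. It had 5.34, 3.21 and 4.12 CPM at 0h, 5.22, 3.98, 2.96 and 3.59 CPM at 2h, 2.44, 4.20, 4.78 and 5.66 CPM at 4h (from 4, 17, 21 and 15 counts) and 3.57, 3.51, 2.68 and 3.63 CPM in rev. All groups overlapped. Its log2 difference from 0h was -0.14 at 2h (95% interval -0.62 to 0.34), 0.05 at 4h (-0.48 to 0.58) and -0.35 in rev (-0.84 to 0.14). It stayed uncalled in each of these comparisons under every alternative run. The intervals allow a difference as large as -0.62 at 2h and -0.84 in rev.

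Rara (ENSMUSG00000037992, mm10 chr11:98927818-98974942, plus strand) encodes retinoic acid receptor alpha. It had 27.9, 21.9 and 23.0 CPM at 0h, 21.9, 23.4, 28.8 and 31.5 CPM at 2h, 24.4, 24.9, 53.3 and 44.9 CPM at 4h and 21.9, 23.4, 39.0 and 32.4 CPM in rev. The high values at 4h were those of clone 8, and clone 4 stayed at 0h levels. In the fit over both clones Rara was called higher at 4h than at 0h (0.59, SE 0.181, 95% interval 0.21 to 0.97, adjusted p = 0.0137) and than at 2h (0.45, SE 0.167, adjusted p = 0.0395), and both differences turned negative with total-count scaling (-0.17 and -0.11). The first call was also lost without either 0h library of clone 8 (0.43 and 0.44) or without clone8_1 of 4h (0.42, adjusted p = 0.0744), and without clone4_1 of 0h the difference was 0.99 (adjusted p = 8.41e-05). With no clone term (0.61, adjusted p = 0.088) and with only the groups compared (0.56, adjusted p = 0.0938) the first call was lost too. The call against 2h was lost in 6 of the 8 fits without a library, those without any one of the 4 libraries of 2h (0.41 to 0.47) or without clone8_1 (0.29, adjusted p = 0.181) or clone8_2 (0.41) of 4h. It was also lost with no filter (0.34, adjusted p = 0.052) and with no clone term. At 2h the difference from 0h was 0.14 (-0.22 to 0.51), in rev it was 0.27 (-0.10 to 0.64), and without clone4_1 of 0h rev was called at 0.68 (adjusted p = 0.0131).

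**Figure D2:**
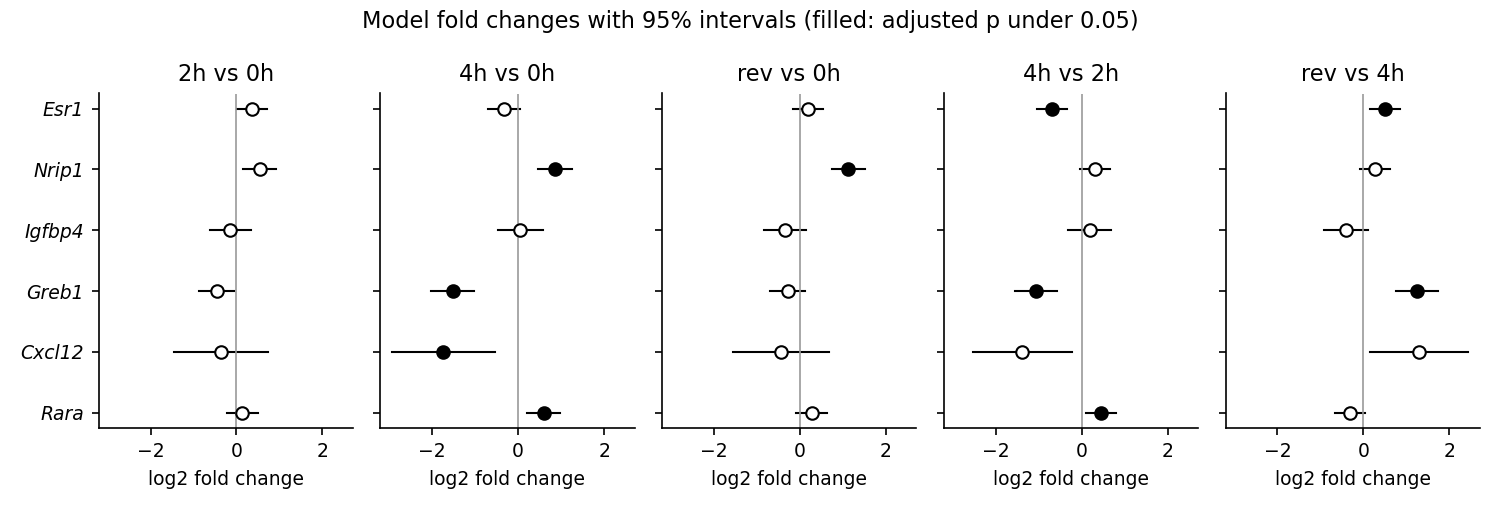
Log2 fold change of each gene (horizontal axis) in 5 comparisons, from the model over all 15 libraries with clone as covariate. Points are estimates, lines are 95% intervals and filled points had an adjusted p under 0.05. None is filled in 2h vs 0h, 4 are filled in 4h vs 0h and Nrip1 alone is filled in rev vs 0h. The filled points of Rara turned negative with total-count scaling.

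After 2 h of 4OHT, when ERK readout genes such as Spry4 and Dusp6 were already at their highest mean, no member was called by the edgeR quasi-likelihood test, against 6.45% of all genes. At an unadjusted p under 0.05 there were 3 members (Esr1, Nrip1 and Greb1), against 21.1% of all genes, and DESeq2 called 0. Groups did not overlap for Greb1 and Cxcl12, 2 of 6 members, as for 19.1% of all genes. Of the 6, Nrip1 alone was called there under any other setting, among them the fit without the 4h libraries (0.55, adjusted p = 0.0184).

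After 4 h, 4 of the 6 members were called against 0h, Nrip1 and Rara higher and Greb1 and Cxcl12 lower, where 39.4% of all genes were called (20.5% higher and 18.9% lower); Rara turned lower with total-count scaling. Groups did not overlap for 3 members, as for 36.3% of all genes. From 2h to 4h, Esr1 and Greb1 fell and Rara was called higher, 3 of 6 against 38.9% of all genes, though the Rara call did not hold without most single libraries. The members thus moved in both directions, in a group where a large share of all genes was called.

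Between 4h and rev, Esr1 and Greb1 rose, 2 of 6 members against 30.8% of all genes, though the Esr1 call was lost in most fits without a library and by DESeq2. Rev against 0h asks what remained after ERK output had been lowered, and Nrip1 was the only member called (1 of 6 against 11.2% of all genes). Rev and 0h did not overlap for Nrip1 and Greb1, 2 of 6 members, as for 25.9% of all genes. In rev against 2h, both of which had seen 4OHT, 0 members were called against 2.31% of all genes, 1 had an unadjusted p under 0.05 (12.1% of all genes) and DESeq2 called 1, in each case Nrip1. Taking all 12 libraries with 4OHT together, with the 3 groups weighted equally, Nrip1 was 0.84 higher (SE 0.161, adjusted p = 0.000963) and Greb1 0.75 lower on the log2 scale than at 0h, that is -0.75 (SE 0.168, adjusted p = 0.00321). These were 2 of 6 members, against 22.1% of all genes. Groups did not overlap for Greb1 alone, as for 5.5% of all genes. The Greb1 call was lost without the 0h library clone4_1 (-0.71, adjusted p = 0.0559), and the Nrip1 call with total-count scaling (0.42, adjusted p = 0.202). With the 4h libraries left out of the contrast, Nrip1 alone was called. The comparisons against 0h share its 3 libraries, so their results are not independent of each other.

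The response was then taken in each clone. In clone 4 no member was called at 2h by the edgeR quasi-likelihood test, against 4.33% of all genes. Cxcl12 alone had an unadjusted p under 0.05 there (-0.84 with the older quasi-likelihood method, which called it, adjusted p = 0.00578). At 4h, 3 were called against 27.1% of all genes: Cxcl12 fell by 3.92 on the log2 scale (SE 0.344, adjusted p = 1.18e-07), Greb1 fell by 1.32 (SE 0.358, adjusted p = 0.0106) and Nrip1 rose by 1.21 (SE 0.258, adjusted p = 0.00191). In rev, Nrip1 remained 1.17 above 0h (adjusted p = 0.00594) and Cxcl12 1.25 below it, at -1.25 (adjusted p = 0.00877), 2 of 6 against 7.32% of all genes. From 4h to rev Cxcl12 rose by 2.67 (SE 0.319, adjusted p = 1.62e-05), 1 of 6 against 17.0% of all genes. The 0h group of clone 4 is 1 library, which was assumed to vary like the others. With total-count scaling the Nrip1 values of clone 4 were 0.35 at 4h and 0.77 in rev, neither called. The Greb1 call was lost without clone4_2 of 4h (-1.15, adjusted p = 0.101), the Nrip1 call in rev without clone4_2 of rev (0.92, adjusted p = 0.0776) and the Cxcl12 call in rev without clone4_1 of rev (-1.15, adjusted p = 0.0775).

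In clone 8 no member was called at 2h by the same test, against 2.42% of all genes, and 2 (Nrip1 and Rara) had an unadjusted p under 0.05. At 4h Greb1 fell by 1.75 (SE 0.323, adjusted p = 0.000547) and Rara was called 1.13 higher (SE 0.143, adjusted p = 1.08e-05), 2 of 6 against 26.5% of all genes. Cxcl12 differed by -0.62 there (adjusted p = 0.0736) and Nrip1 by 0.51 (adjusted p = 0.0706). In rev Nrip1 was 1.13 above 0h (SE 0.200, adjusted p = 0.00148) and Rara 0.67 above it (SE 0.141, adjusted p = 0.00651), 2 of 6 against 4.81% of all genes. From 4h to rev 5 of 6 members were called, against 23.4% of all genes: Greb1 (1.6), Esr1 (0.90), Cxcl12 (0.82) and Nrip1 (0.62) higher and Rara lower (-0.46). Of these, the Nrip1 and Cxcl12 calls were lost without any of the 4 libraries of clone 8 in these groups, the Esr1 call without clone8_1 of 4h (0.68) or of rev (0.84), and the Rara call without clone8_1 of 4h (-0.33) or clone8_2 of rev (-0.33). With total-count scaling, Rara in clone 8 was 0.44 at 4h and 0.32 in rev and Nrip1 in rev 0.78, none of them called. The Rara call in rev was lost without either 0h library (0.63 and 0.69) or clone8_1 of rev (0.51).

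**Figure D3:**
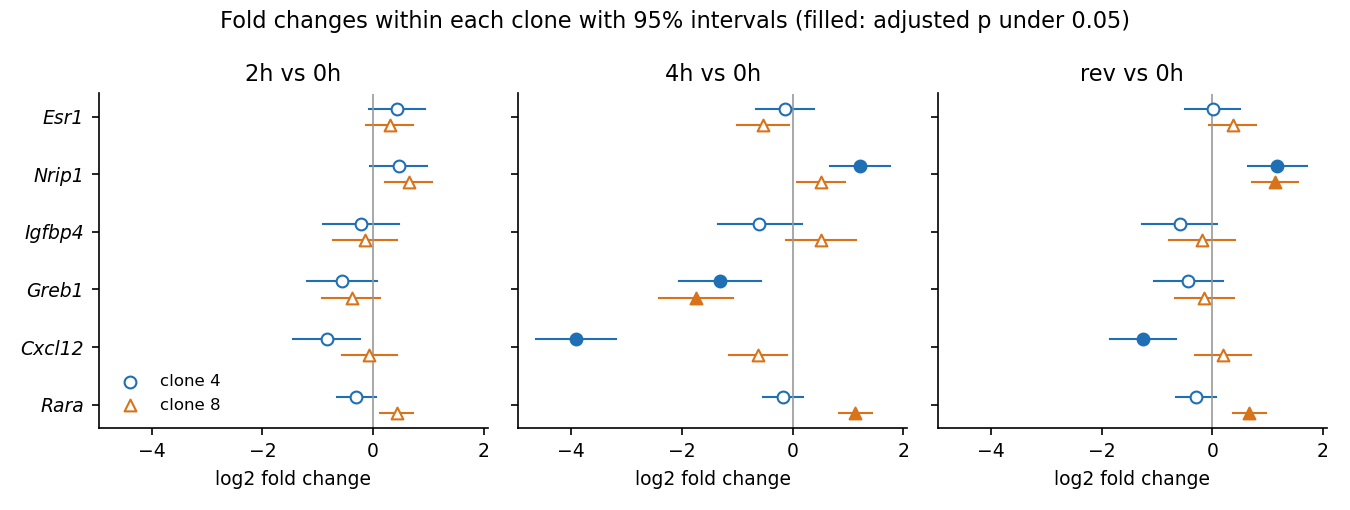
Log2 fold change against 0h (horizontal axis) of each gene within clone 4 (circles) and clone 8 (triangles) at 2h, 4h and in rev. Lines are 95% intervals and filled points had an adjusted p under 0.05. At 4h Cxcl12 lies at -3.92 in clone 4 and -0.62 in clone 8, and Rara at 1.13 in clone 8 alone is filled.

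Whether the clones differed was tested directly. Over the 3 interaction terms together, Cxcl12 (adjusted p = 0.000442) and Rara (adjusted p = 0.00769) differed between the clones, 2 of 6 members against 3.18% of all genes. The other 4 had adjusted p-values between 0.35 (Nrip1) and 0.873 (Greb1). At 4h against 0h the response of Cxcl12 was 3.30 higher in clone 8 than in clone 4 (SE 0.432, adjusted p = 7.53e-05) and that of Rara 1.30 higher (SE 0.222, adjusted p = 0.00109), 2 of 6 against 3.87% of all genes. Both values rest on a single 0h library of clone 4, clone4_1, the one without which the fall of Cxcl12 over both clones was not called. From 4h to rev, a step that does not use the 0h libraries, the recovery of Cxcl12 was smaller in clone 8, by -1.85 (SE 0.409, adjusted p = 0.0156), 1 of 6 against 2.8% of all genes. At 2h and in rev against 0h no member was called different between the clones by the edgeR test, where 0.23% and 0.0818% of all genes were. At an unadjusted p under 0.05 there were 1 at 2h (Rara) and 2 in rev (Cxcl12 and Rara), and the smallest adjusted p was 0.0896, for Rara in rev. No fit of the difference from 0h could leave out clone4_1 of 0h, since clone 4 has no other library there. In the alternatives that were run, which left out each of the other 14 libraries in turn, the joint call of Cxcl12 was made each time (largest adjusted p = 0.00681), and that of Rara was lost without clone8_1 of 0h (adjusted p = 0.0529) and with total-count scaling (adjusted p = 0.814).

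ERK output also differed between the clones. The summed ERK readout was 1290 and 1510 CPM in clone 4 at 2h against 857 and 802 CPM in clone 8, and 787 and 818 CPM against 440 and 446 CPM at 4h. Spry4, a feedback inhibitor of the pathway, had 117.5, 124.2, 61.7 and 60.9 CPM at 2h and 94.1, 105.2, 38.5 and 43.7 CPM at 4h. At 4h against 0h, the response of 7 of 10 readout genes was called different between the clones, each of them lower in clone 8, against 3.87% of all genes. Naive markers at 4h ran the opposite way, with sums of 31.2 and 34.6 CPM in clone 4 and 92.9 and 71.6 CPM in clone 8. The part of these differences in those of Cxcl12 and Rara was not tested.

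**Figure D4:**
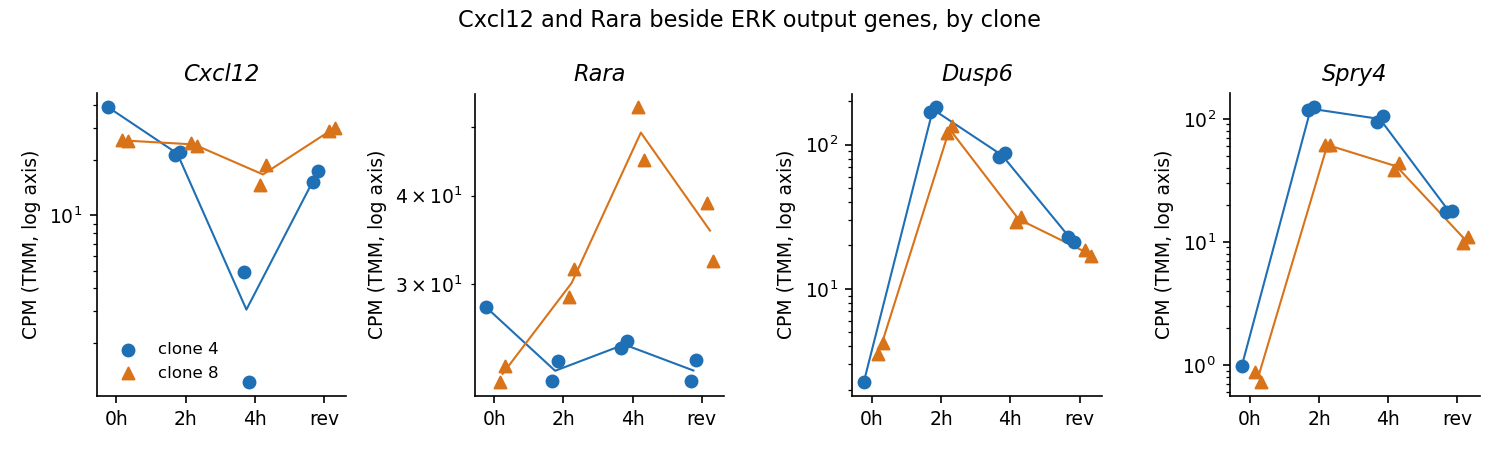
Level of Cxcl12, Rara and the ERK readout genes Dusp6 and Spry4 (vertical log axes, CPM on TMM-scaled libraries) by group. Points are libraries and lines join the means of clone 4 (circles) and clone 8 (triangles). Cxcl12 drops to 4.89 and 1.23 CPM in clone 4 at 4h, where Rara reaches 53.3 and 44.9 CPM in clone 8 and Spry4 is lower in clone 8.

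A wider list of 39 receptor targets, written from general knowledge of breast and uterine cells with earlier results of these data known, held 28 tested genes. Against 0h, 3 were called higher and 2 lower at 2h. At 4h the counts were 8 higher and 5 lower. In rev 6 were higher and 4 lower. The shares of all genes called in either direction were 6.45%, 39.4% and 11.2%. Their median log2 difference from 0h was 0.08 at 2h, 0.06 at 4h and 0.31 in rev, beside 0.01, 0.03 and 0.02 over all genes. With 4 genes at or under 3 counts in every library of a group put at their bound, the median at 4h was 0.10. With total-count scaling 4 of these targets were higher and 11 lower at 4h, while in rev 2 were higher and 3 lower. The shares of all genes called were then 49.8% and 5.64%. Leaving out clone4_1 of 0h left 1 call at 2h, which was higher, 7 higher and 2 lower at 4h, and 2 higher and 1 lower in rev. Over all genes that fit called 2.29%, 28.2% and 3.72%. Within clone 4, 8 rose and 2 fell at 4h, against 27.1% of all genes called, and within clone 8 also 8 rose and 2 fell, against 26.5%. The response at 4h differed between the clones for 3 of the 28 (3.87% of all genes). As among the 6 members, rises and falls stood side by side.

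Pgr, the progesterone receptor gene and a standard readout of oestrogen action, had 1.94, 2.21 and 2.06 CPM at 0h and 1.59, 3.27, 3.31 and 2.14 CPM at 2h. It had 1.83, 0.494, 0.911 and 0.377 CPM at 4h, from 1 to 4 counts, and 2.52, 2.79, 2.12 and 3.53 CPM in rev. It fell at 4h (-1.35, adjusted p = 0.0144) and rose again in rev (1.77 above 4h, adjusted p = 0.00189), and both calls held without any library. Its 4h values are at or near the floor of these small libraries. In this fall and return it resembled Greb1, with no difference from 0h called at 2h (0.33) or in rev (0.42).

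Xbp1, a transcription factor of the unfolded protein response that oestrogen also raises, climbed from 11.7 to 13.03 CPM at 0h to 17.4 to 20.1 CPM at 2h and 28.7 to 34.8 CPM at 4h, and had 16.5 to 23.8 CPM in rev. It was called at 2h (0.57, adjusted p = 0.0105), at 4h (1.31, adjusted p = 2.68e-07) and in rev (0.63, adjusted p = 0.00372), though at 2h and in rev not without clone4_1 of 0h, and at 2h not without clone8_1 of 2h. Sgk1, a kinase induced by steroid hormones and by growth factors, rose by 0.86 at 2h (adjusted p = 0.0094) and 1.73 at 4h (adjusted p = 2.67e-06) and fell by 1.52 from 4h to rev (adjusted p = 4.12e-06). The 2h call of Sgk1 was lost without clone4_1 of 0h. Ccnd1, the cyclin of early G1, which shares 1100 exon bases with LTO1, went down. It had 79.9, 75.2 and 71.0 CPM at 0h, 45.1 to 56.1 CPM at 2h, 50.1 to 65.2 CPM at 4h and 35.8 to 55.9 CPM in rev. Its differences from 0h were -0.55 at 2h (adjusted p = 0.004), -0.34 at 4h (adjusted p = 0.0214) and -0.69 in rev (adjusted p = 0.000332). The call in rev held without any library and with total-count scaling (-1.02), and those at 2h and 4h were lost without clone4_1 of 0h (that at 4h also without clone4_1 of 4h).

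Other targets called at 4h were Pdzk1, a scaffold protein gene (2.05, adjusted p = 0.000378), Tpd52l1 (1.16, adjusted p = 0.000957), Rbbp8, which encodes the DNA repair factor CtIP (0.82, adjusted p = 0.000302), and Celsr2, a cadherin (-0.69, adjusted p = 0.00189). The first 3 held without any library, and Celsr2 was lost without clone4_1 of 0h. With total-count scaling the 4h calls of Sgk1 (1.02), Pdzk1 (1.23) and Celsr2 (-1.46) were kept, and those of Xbp1 (0.59), Tpd52l1 (0.40) and Rbbp8 (0.04) were lost. Pdzk1 shares 1482 of its 3556 exon bases with other genes. Cited1, a transcriptional coactivator, had 7.33 and 15.8 CPM at 4h in clone 4 and 0.683 and 0.754 CPM in clone 8, against at most 0.727 CPM at 0h. Together with Sgk1, Vegfa and Egr3 it was 1 of 4 listed targets that differed between the clones in the joint test, of 28 tested, against 3.18% of all genes. Egr3, also an immediate early gene of ERK, had at most 1 count at 0h and 49.4 to 146 CPM at 2h. Tff1, the most used oestrogen readout in human breast cancer cells, had 0 counts in every library.

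**Figure D5:**
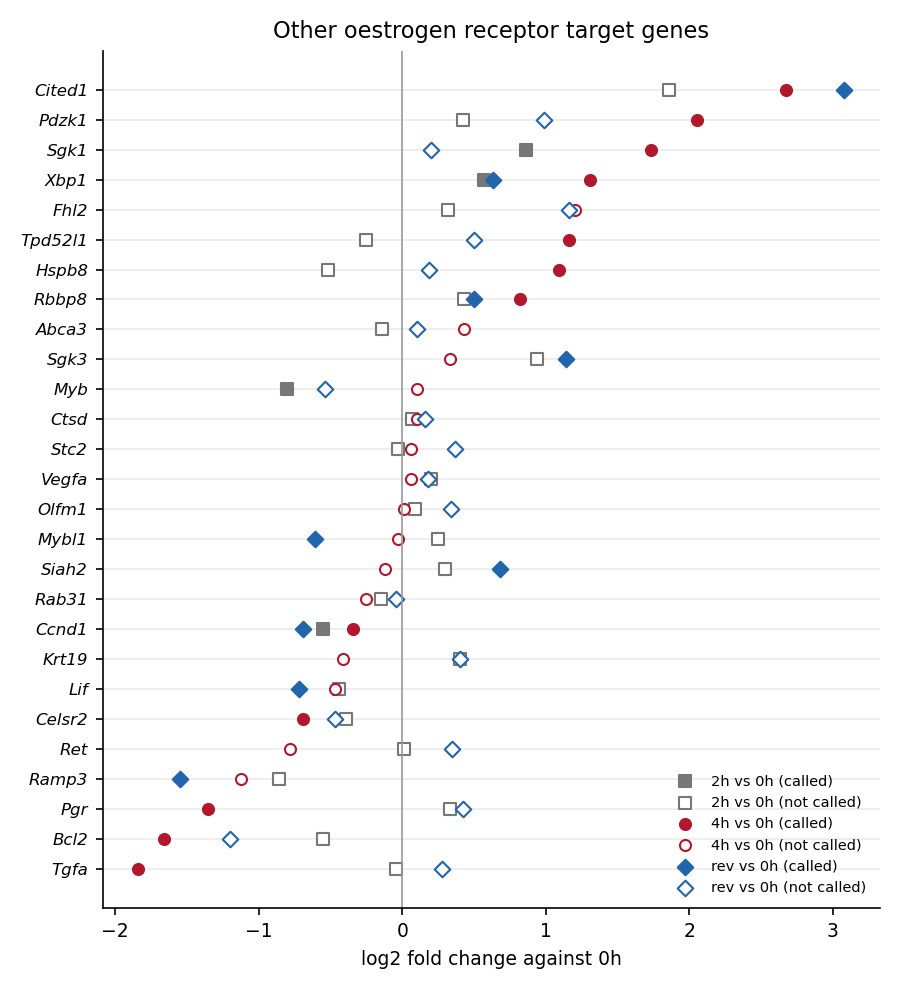
Log2 fold change against 0h (horizontal axis) of 27 of the 28 tested genes in the wider target list, at 2h (squares), 4h (circles) and in rev (diamonds), from the model over all 15 libraries. Filled symbols had an adjusted p under 0.05, and Egr3 is left out because it had at most 1 count at 0h. The genes spread to both sides of 0. With total-count scaling those at 4h shift to 4 called higher and 11 lower, where 49.8% of all genes were called.

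Coregulators are the proteins through which the receptor turns genes on or off. Of 27 tested coregulators, 14 were called higher and 5 lower at 4h (median 0.26, all genes 0.03), where 39.4% of all genes were called. In rev 6 were higher and 1 lower, where 11.2% of all genes were called. With total-count scaling the counts at 4h were 4 and 10, beside 49.8% of all genes called, so the direction of this list depends on the scaling. The steroid receptor coactivator genes Ncoa1, Ncoa2 and Ncoa3 were 1.46, 1.21 and 1.09 higher at 4h (adjusted p = 1.08e-05, 1.19e-06 and 2.66e-07). With total-count scaling they stayed positive (0.77, 0.51 and 0.37), of which Ncoa1 alone was called. Ncor1, a corepressor that tamoxifen-bound receptor recruits, was 0.88 higher (adjusted p = 1.26e-06). All 4 fell again from 4h to rev (-1.30, -0.67, -1.14 and -0.85). Prmt1, an arginine methyltransferase and coactivator, fell at 4h (-0.45, adjusted p = 0.000348). At 2h Ddx5 (0.37) and Ctbp2 (-0.41) were the 2 called, of 27, against 6.45% of all genes.

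Greb1l, the paralog of Greb1, ran opposite to it. It had 2.11, 2.67 and 4.12 CPM at 0h and 11.0, 11.4, 23.2 and 25.3 CPM at 4h, and 5.22 to 5.603 CPM in rev. It rose by 2.64 on the log2 scale at 4h (adjusted p = 2.64e-07) and fell by 1.69 to rev (adjusted p = 1.77e-05), in both clones (2.40 and 2.85 at 4h) and with total-count scaling (1.94 and -1.25). How reads shared by the paralogs were counted is not given in the sources used here. Nr0b1, which encodes the corepressor DAX1 and is also a naive pluripotency marker, had 3.67 and 3.95 CPM at 4h in clone 4 and 25.0 and 19.2 CPM in clone 8 (joint test, adjusted p = 0.0104). Of the 2 orphan receptor genes tested, Esrrb was called different between the clones in the joint test, against 3.18% of all genes, and Esrra was not. Esrrb, a naive pluripotency factor, had 15.3 and 7.41 CPM at 4h in clone 4 and 72.9 and 76.2 CPM in clone 8, against 2.43 to 4.24 CPM at 0h (3.57, adjusted p = 0.000575; joint test of the clones, adjusted p = 0.0441). Esrra, which drives genes of energy metabolism, fell at 4h (-1.21, adjusted p = 0.000515).

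Of 10 genes for chaperones that hold steroid receptors ready for ligand, 2 were called higher and 3 lower at 4h, not far from the 39.4% of all genes called. The cochaperone genes Fkbp4 (-0.59), Fkbp5 (-0.39) and Stub1 (-0.63, sharing 1148 of its 2561 exon bases with other genes) fell in the fit over both clones, and Stip1 (0.43) and Hsp90aa1 (0.20) were called higher. Within clone 4, 2 of the 10 were called higher and 3 lower at 4h, against 27.1% of all genes. Within clone 8, 3 were called higher and 0 lower, against 26.5%. Dnajb1, a heat shock protein gene, rose at 2h (1.45, adjusted p = 0.00764). Around Rara, 5 of 13 tested retinoid genes were called at 4h, of which 4 higher, about the share of all genes (39.4%). Rarg, which encodes retinoic acid receptor gamma, had 39.8 to 43.4 CPM at 0h and 95.3 to 114.5 CPM at 4h (1.32, adjusted p = 6.23e-09), and rose in both clones (1.28 and 1.37). Dhrs3, a retinaldehyde reductase gene, fell at 4h (-1.04) and was above 0h in rev (0.88), and Cyp26a1, which clears retinoic acid, was above 0h in rev (2.23). In rev against 0h, 0 of the 13 retinoid genes were called within clone 4, against 7.32% of all genes. Within clone 8, 2 were called, both higher, against 4.81%. Around Igfbp4, 2 of 8 tested genes of the insulin-like growth factor axis were called at 4h over both clones, against 39.4% of all genes, both lower: Irs1, which shares 2822 of its 9144 exon bases with Gm9747 (-1.09), and the receptor gene Igf1r (-0.40). Within the clones the counts went opposite ways. In clone 4, 3 of the 8 were called at 4h, each higher (Igf2 1.08, Irs2 1.72, Igfbp3 0.73), against 27.1% of all genes. In clone 8 also 3 were called, each lower (Igf2 -2.02, Igf2r -0.46, Irs1 -1.30), against 26.5% of all genes. The 0h group of clone 4 is 1 library. In the joint test 3 of 8 differed between the clones, against 3.18% of all genes: the growth factor gene Igf2, which shares 3694 of its 5723 exon bases with Gm49394 and Igf2os (adjusted p = 0.000242), Irs2, which encodes a docking protein of the insulin and IGF1 receptors (adjusted p = 0.000241), and Igfbp3 (adjusted p = 0.0404). Of the genes around Cxcl12, its receptors Cxcr4 and Ackr3 did not pass the filter, and Dpp4, a protease that trims the chemokine, rose at 4h (2.87, adjusted p = 1.77e-05).

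The genes whose levels followed each member most closely over the 15 libraries were read off as a description, by Pearson's r of log2 CPM among 8345 genes of at least 5 CPM. For Esr1 they were Lsr (0.949), Ercc1 (0.915) and Pramef8 (0.901), for Nrip1 Far1 (0.942), Impa1 (0.877) and Ppp3r1 (0.873), and for Greb1 Tub (0.971), Syt11 (0.95) and Acsl5 (0.945). Tub had 16.6, 11.8, 6.88 and 13.8 CPM on average at 0h, 2h, 4h and in rev, the course of Greb1 at a higher level. For Cxcl12 they were Dsg2 (0.954), Fanca (0.944) and Baz1b (0.933), for Igfbp4 Mlxip (0.904), Ecsit (0.864) and Smoc1 (0.852), and for Rara Nr0b1 (0.915), Stk38 (0.896) and Cic (0.879). The points share their libraries, so depth and group enter every r. Among the 15 pairs of members r ran from -0.679 (Esr1 and Rara) to 0.601 (Greb1 and Cxcl12). The genes above were picked as the highest of 8345 and the members were not, so these values of r cannot be compared with each other.

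Rara and Igfbp4 lie 65063 bases apart on chromosome 11 with the genes Gjd3 and Top2a between them. Top2a, a topoisomerase of dividing cells at 426 CPM, was not called at 4h against 0h (0.07, adjusted p = 0.553), and Gjd3 was not tested. Cdc6, 3858 bases before Rara, was called lower at 4h (-0.32, adjusted p = 0.0356). E2f6, the neighbour of Greb1 at 9515 bases, fell at 4h (-0.56, adjusted p = 0.007) and rose in rev (0.51 above 4h, adjusted p = 0.0108). The tested neighbours of Esr1 (Syne1), Nrip1 (Usp25) and Cxcl12 (Zfp637) were not called at 4h against 0h.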

How the data were processed

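Raw counts of reads per gene were analysed as deposited by the authors. They were whole numbers for 52636 Ensembl identifiers, of which 52403 were named from GENCODE M21 (mm10). Per the submitters' processing notes, bcl2fastq 2.19.1, STAR 2.5.3a and the build mm10 were used. The counter, its strand setting and the annotation are not given in the sources used here. Per the labels, 1 µg of RNA was depleted of ribosomal RNA and made into libraries with a NEBNext kit.

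Counts were tested in R 4.3.3 with edgeR 4.0.16: filterByExpr on the group (minimum count 10, total 15), TMM scaling, and robust quasi-likelihood F tests, two-sided, with the group and clone as terms over all 15 libraries. P-values were adjusted by Benjamini-Hochberg over all 13451 tested genes, and a gene was called under 0.05. "Rose" and "fell" refer to called genes. Responses within and between clones came from a second model whose 8 terms were the combinations of group and clone. Differences are log2 fold changes with the model's standard error (SE).

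The members and gene lists (other targets, related receptors, coregulators, chaperones, retinoid, insulin-like growth factor, chemokine, ERK readout and cell type markers) were chosen with earlier results of these data known, and lists are described by counts and medians. A further list, of genes related to the construct, is not reported here. Genes named are the members, list genes that were called or whose level is needed, the 3 genes most correlated with each member, and the nearest protein-coding neighbours by RefSeq. Promoters are from RefSeq (GRCm38.p6). Alternatives were other scalings (DESeq2 size factors, total counts), no filter, removal of the 20 most abundant and mitochondrial genes, other covariates and samples, DESeq2 1.42.0, and leaving out each library. The older quasi-likelihood method of edgeR, the fits without the 4h libraries and the contrast of 2h and rev against 0h were added after seeing the data. The steps were tested on simulated data.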

Additional observations from a re-analysis of the deposited data

Results flagged for a closer look

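Nrip1 in rev had 21.6 CPM in clone4_1, far below the other 3 libraries of the group (28.7 to 30.2 CPM) for their spread. Igfbp4 in rev had 2.68 CPM in clone8_1, far below the other 3 (3.51 to 3.63 CPM). These were 2 of 18 groups of 4 libraries looked at, and chance flags about 1 in 20 groups.

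Cxcl12 and Rara responded differently in the 2 clones, with adjusted p = 0.000442 and 0.00769 in the joint edgeR test. At 4h against 0h the response of clone 8 exceeded that of clone 4 by 3.30 on the log2 scale for Cxcl12 (-3.92 in clone 4, -0.62 in clone 8) and by 1.30 for Rara (-0.17 in clone 4, 1.13 in clone 8). The 0h group of clone 4 in these values is 1 library. From 4h to rev the response of Cxcl12 differed by -1.85 (2.67 in clone 4, 0.82 in clone 8). The ERK readout and naive marker sums differ between the same libraries, and their part in this was not tested.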

How the results depend on the processing

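Of the values recomputed for the members, 665 kept direction and call, 33 lost a call, 27 gained one and 25 changed sign, and the cause was not tested. With total-count scaling Rara became -0.06 in 2h vs 0h, -0.17 in 4h vs 0h, -0.11 in 4h vs 2h, 0.08 in rev vs 4h, -0.03 in rev vs 2h, -0.10 in rev vs 0h and -0.11 in the mean of the 4OHT groups. Under it Igfbp4 became -0.73 in 4h vs 0h, -0.40 in 4h vs 2h and 0.08 in rev vs 4h, Nrip1 -0.26 in 4h vs 2h, and Esr1 -0.16 in rev vs 0h and -0.38 in the mean. Igfbp4 in 4h vs 0h was -0.07 without the filter. Leaving out a library gave ranges across 0 for Igfbp4 in 2h vs 0h (-0.28 to 0.05), 4h vs 0h (-0.14 to 0.23) and the mean (-0.29 to 0.04), for Cxcl12 in 2h vs 0h (-0.60 to 0.39) and rev vs 0h (-0.70 to 0.27), for Rara in 2h vs 0h (-0.01 to 0.56) and for Esr1 in the mean (-0.01 to 0.16).

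The number of members called in 2h vs 0h was 1 in place of 0 with no filter, without the 20 most abundant and mitochondrial genes, with only the groups compared, with the older quasi-likelihood method and without the 4h libraries (4.0% to 11.4% of all genes called). In rev vs 2h it was 1 in place of 0 in the same 5 settings, with the replicate block and with DESeq2 (1.76% to 4.53% of all genes). In rev vs 4h it was 1 in place of 2 without the most abundant genes, with no clone term, with only the groups compared and with the older method (23.3% to 28.2% of all genes). It was 1 in 4h vs 2h with no clone term (31.7% of all genes), 2 in 4h vs 0h with only the groups compared (32.8%), and 1 in clone 4 at 2h with the older method (7.05%). With total-count scaling it was 0 in rev vs 0h (5.64% of all genes), 1 in clone 4 (1.71%) and 0 in clone 8 (1.1%) for rev vs 0h, 2 in clone 8 for rev vs 4h (8.53%), and 1 in the joint test (0.84%). Without 1 library, 2.29% to 7.94% of all genes were called in 2h vs 0h and 1.2% to 2.07% in rev vs 2h. In rev vs 4h the share was 24.4% to 29.8%, and in rev vs 0h 3.72% to 9.86%. Leaving out a library gave 0 to 1 members in 2h vs 0h and in rev vs 2h, 1 to 3 in rev vs 4h, 1 to 2 in rev vs 0h, 1 in clone 4 and 1 to 2 in clone 8 for rev vs 0h, 1 to 3 in clone 8 for rev vs 4h, and 1 to 2 in the joint test.

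Replicate numbers were not used as pairs in the main model. Within each clone, the difference between its libraries in a group was correlated between groups, and 1 of 9 correlations was over 0.1 (-0.194 to 0.261). Low values cannot show that same-numbered libraries were unrelated. With the replicate block, Cxcl12 in 4h vs 0h was -1.64 (adjusted p = 0.0606), Rara in 4h vs 2h was not called (adjusted p = 0.0625) and Nrip1 in rev vs 2h was called (adjusted p = 0.0267).

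Over all genes, calls in 2h vs 0h were 867, and 266 with total-count scaling, 1305 with no filter, 1499 without the most abundant genes, 427 with no clone term, 1327 with the older method, 1532 without the 4h libraries and 308 to 511 without clone4_1 of 0h, clone4_2 of 2h or clone8_1 of 2h. In rev vs 0h they were 1500, and 759 with total-count scaling, 2282 without the most abundant genes, 793 with no clone term, 3003 with only the groups compared, 2327 without the 4h libraries and 501 without clone4_1 of 0h. In rev vs 2h they were 311, and 119, 575, 502 and 96 with total-count scaling, no filter, no most abundant genes and no clone term, 569 with only the groups compared and 610 without the 4h libraries. In the mean they were 2969, and 869 and 1828 without clone4_1 and clone8_1 of 0h. In the clones, total-count scaling took 582 to 223 (2h vs 0h), 985 to 230 (rev vs 0h) and 2282 to 848 (rev vs 4h) in clone 4, 325 to 104, 647 to 148 and 3152 to 1148 in clone 8, and 428 to 113 in the joint test, which was 668 with no filter. The older method gave 948 and 1513 in clone 4 (2h and rev vs 0h) and 488 in clone 8 at 2h. Leaving out a further library moved them to 828 to 986 in rev vs 0h (clone8_1 of 0h, clone4_2 and clone8_2 of rev), 161 to 204 in rev vs 2h (both clone 4 libraries of 2h; clone4_2, clone8_1 and clone8_2 of rev), 307 and 494 in clone 4 at 2h and in rev vs 0h (clone4_2 of either), 1178 to 1286 in clone 4 for rev vs 4h (each rev library), 1962 to 2144 in clone 8 for 4h vs 0h from 3562 (both 0h libraries, clone8_2 of 4h), 250 to 289 in clone 8 for rev vs 0h (each library), 111 to 183 in clone 8 at 2h (both 0h libraries, clone8_1 of 2h), 1775 to 1940 in clone 8 for rev vs 4h (clone8_1 of rev, clone8_2 of 4h) and 238 to 285 in the joint test (clone8_2 of 0h, both clone 8 libraries of 4h). The small 4h libraries limit the members with few reads there, among them Greb1, Igfbp4 (4 to 21 counts) and, in clone 4, Cxcl12.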
